A study of Mus musculus with 6 samples.

Results

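The genes described here are 44 components of the machinery that copies DNA and divides the nucleus, 19 that act mainly in S phase and 25 that act mainly in G2 and mitosis. They were chosen by symbol, as standard components and markers of both phases, with earlier results of these data known. All 44 matched a row of the 23284 gene symbols in the deposited table. The data are poly(A) RNA sequencing of whole lung from 6 mice, all 6 weeks old and on a C57BL/6 background. The wild-type group was 3 littermates without the transgene, and the Fra-2tg group was 3 mice carrying a Fra-2 transgene, with no treatment in either group. Fra-2 is the AP-1 transcription factor encoded by Fosl2. Neither the promoter that drives the transgene nor the number of founder lines is given in these sources. The comparison asks which lung genes differ in level with the transgene. A library stands for 1 mouse, and replicates 1 to 3 of each group are listed in that order throughout. Values are FPKM, fragment numbers divided by transcript length and library size, which is a level per length.

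In late G1, E2F transcription factors switch on the genes for S phase: the Mcm helicase is loaded on replication origins, deoxynucleotides are made, and the sliding clamp Pcna tethers polymerases to the fork. A later wave of genes for cyclin B with Cdk1, the spindle and cytokinesis is held off by the DREAM complex in resting cells and switched on by B-Myb and Foxm1 in G2, largely through CHR and CCAAT elements in their promoters. In healthy adult lung few cells divide. The messages of both waves are scarce in resting cells, so they are widely used to read out dividing cells in whole tissue. In bulk RNA, fewer cells of a type and less RNA per cell cannot be told apart.

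The promoters of the members are shown because they separate both waves without use of the expression values. RefSeq promoter windows of 300 bases, from 250 before to 50 after the start of transcription, were found for 36 of the 44 members, in 40 windows (GRCm38.p6). Gins2, Tpx2, Ccne2, Mcm4, Aurkb, Kif20a, Ccna2 and Foxm1 had no entry in the table used. Motifs were searched as exact letters on both strands: the CHR as TTTGAA, the NF-Y box as CCAAT, and E2F sites as TTTCCCGC, TTTGGCGC, TTTCGCGC or TTTGCCGC. The CHR letters were in 17 of 22 mitotic windows (77.3%) and 1 of 18 S-phase windows (5.56%), against 17.9% of all 32851 promoter windows. The E2F letters were in 7 of 18 S-phase windows (38.9%) and 1 of 22 mitotic windows (4.55%), against 2.26% of all windows. CCAAT was in 20 mitotic windows (90.9%) and 11 S-phase windows (61.1%), against 37.4% of all. A match is a description of the letters and not evidence of a bound factor. No match says only that these letters were not in the window.

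The stretches just before the start are printed 5′ to 3′ on the gene's strand, with the matched motifs in capitals, for the members with the smallest adjusted p in each phase among those with an entry. Mcm5 and Mki67 were added after their values were seen. The stretches end at the start of transcription, except that of Prc1, which runs 1 base past it, and Prc1 is shown for the upstream of its 2 start sites. For S phase these are Mcm6 (chr1:128359706-128359905, minus strand), Mcm5 (chr8:75109309-75109508, plus strand) and Tyms (chr5:30073626-30073825, minus strand). In Mcm6 and Mcm5 the longest block of capitals is a pair of E2F matches that overlap on opposite strands, and ATTGG is CCAAT on the other strand. The Tyms stretch holds none of the motifs searched.
Mcm6: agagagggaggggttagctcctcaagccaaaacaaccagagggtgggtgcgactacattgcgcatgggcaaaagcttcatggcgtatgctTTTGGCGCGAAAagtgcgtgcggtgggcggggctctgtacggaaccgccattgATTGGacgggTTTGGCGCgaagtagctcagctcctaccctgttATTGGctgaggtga
Mcm5: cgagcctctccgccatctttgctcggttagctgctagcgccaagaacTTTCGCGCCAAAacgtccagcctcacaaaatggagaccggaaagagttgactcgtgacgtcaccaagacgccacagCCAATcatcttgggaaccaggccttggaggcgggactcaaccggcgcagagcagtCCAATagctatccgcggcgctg
Tyms: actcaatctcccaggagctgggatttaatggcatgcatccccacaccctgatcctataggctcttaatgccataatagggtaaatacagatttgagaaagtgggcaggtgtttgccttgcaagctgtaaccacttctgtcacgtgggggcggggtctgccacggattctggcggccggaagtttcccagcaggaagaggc

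The mitotic stretches are those of Cdk1 (chr10:69352913-69353112, minus strand), Prc1 (chr7:80294251-80294451, plus strand) and Mki67 (chr7:135716380-135716579, minus strand). Each holds the CHR letters TTTGAA downstream of at least 1 CCAAT box. Cdk1 is the member of this phase that also has an E2F match, TTTCGCGC.
Cdk1: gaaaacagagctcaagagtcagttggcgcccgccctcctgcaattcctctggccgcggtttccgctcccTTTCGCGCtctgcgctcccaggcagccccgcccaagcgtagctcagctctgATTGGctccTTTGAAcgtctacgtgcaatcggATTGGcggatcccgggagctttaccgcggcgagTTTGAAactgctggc
Prc1: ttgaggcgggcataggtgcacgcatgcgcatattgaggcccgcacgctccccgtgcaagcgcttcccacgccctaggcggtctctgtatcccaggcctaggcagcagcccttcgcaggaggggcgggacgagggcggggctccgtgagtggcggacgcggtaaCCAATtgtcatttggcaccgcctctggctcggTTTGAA
Mki67: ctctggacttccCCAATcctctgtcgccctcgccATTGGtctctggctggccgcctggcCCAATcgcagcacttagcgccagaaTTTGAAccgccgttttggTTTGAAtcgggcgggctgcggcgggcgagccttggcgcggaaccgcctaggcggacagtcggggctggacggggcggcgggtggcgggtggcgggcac

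Fosl2 itself was at 11.1, 13.9 and 11.2 FPKM in wild-type lungs and 12.3, 17.4 and 15.8 FPKM in Fra-2tg lungs. The groups overlapped, and the log2 fold change of 0.30 ± 0.14 (SE) was not called (limma adjusted p = 0.158), so total Fosl2 RNA does not check the labels. Lung markers were abundant in every library, with Ager of alveolar type 1 cells at 1319 to 1664 FPKM and the surfactant gene Sftpb at 2056 to 3642 FPKM. Sftpc was listed at 0 in the 3 Fra-2tg libraries, and the club cell gene Scgb1a1 was at 0 in Fra-2tg replicate 2 and wild type replicate 1. The FPKM of a library summed to 542233 to 664456, and the sources used here do not give the number of reads behind them. Wild type replicate 1 stood apart from the other wild-type libraries. Glycam1, which marks the high endothelial venules of lymph nodes, was at 40.4 FPKM there, against at most 0.348 FPKM in any other library. Counts called among the members and the other cell cycle lists are therefore given with and without this library. Marker counts are given with the 6 libraries, and for some lists also without it.

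Of 9 genes for the replicative helicase and its loading, 6 were called higher in the Fra-2tg lungs, as were 3 of 6 genes for nucleotide supply and the fork and 3 of 25 mitotic genes. Of the 43 members that reached a mean of 0.5 FPKM, all 43 had a positive log2 fold change, from 0.08 to 1.00, and 12 were called higher and 0 lower at a limma adjusted p under 0.05. Called higher were 27.9% of the members, against 13.6% of all 14855 genes tested (lower: 13%). The called genes were Mcm6, Tyms, Tk1, Gins2, Rrm1, Mcm5, Cdt1, Mcm3 and Mcm2 of S phase, and Prc1, Tpx2 and Cdk1 of mitosis. The median log2 fold change of the members was 0.54, beside 0.00263 over all genes tested.

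The numbers of genes called in each phase lay further apart than the sizes of their changes. Of 18 tested S-phase members, 9 (50%) were called higher, and of 25 mitotic members 3 (12%), which is near the share among all genes. The median log2 fold change was 0.48 for S phase and 0.58 for mitosis. The ratio of the group means, Fra-2tg over wild type, had a median of 1.49 (1.16 to 2.44) over the 19 S-phase members and of 1.67 (1.09 to 2.12) over the 25 mitotic ones. The spread among the wild-type mice was wider for mitotic genes. The median coefficient of variation within wild type was 43.9% for mitotic members and 23.0% for S-phase members, and within Fra-2tg it was 17.9% and 9.37%. All 3 Fra-2tg values lay above all 3 wild-type values for 13 of 18 tested S-phase members and 5 of 25 mitotic members, against 23.3% of all genes tested. No test of the difference between the phases was run, because genes are not replicates.

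Wild type replicate 1 held the highest wild-type value of all 44 members, whereas it was the highest wild-type library for 32.7% of all genes tested. Wild type replicate 3 was the lowest wild-type library for 40 of them. Relative to the wild-type mean, the median mitotic member stood at 1.50, 0.843 and 0.690 in wild type and at 2.06, 1.34 and 1.67 in Fra-2tg. The median S-phase member stood at 1.19, 0.988 and 0.775 in wild type and at 1.63, 1.47 and 1.43 in Fra-2tg. The mitotic level of wild type replicate 1 therefore exceeded that of Fra-2tg replicate 2, and its S-phase level was below all Fra-2tg libraries. Gene by gene, wild type replicate 1 was above the lowest Fra-2tg value for 20 of 25 mitotic members but 5 of 19 S-phase members. Wild type replicate 2 was so for 1 member and wild type replicate 3 for 0. Fra-2tg replicate 1 was the highest Fra-2tg library for 24 of 25 mitotic and 14 of 19 S-phase members, and Fra-2tg replicate 2 the lowest for 22 and 10.

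**Figure D1:**
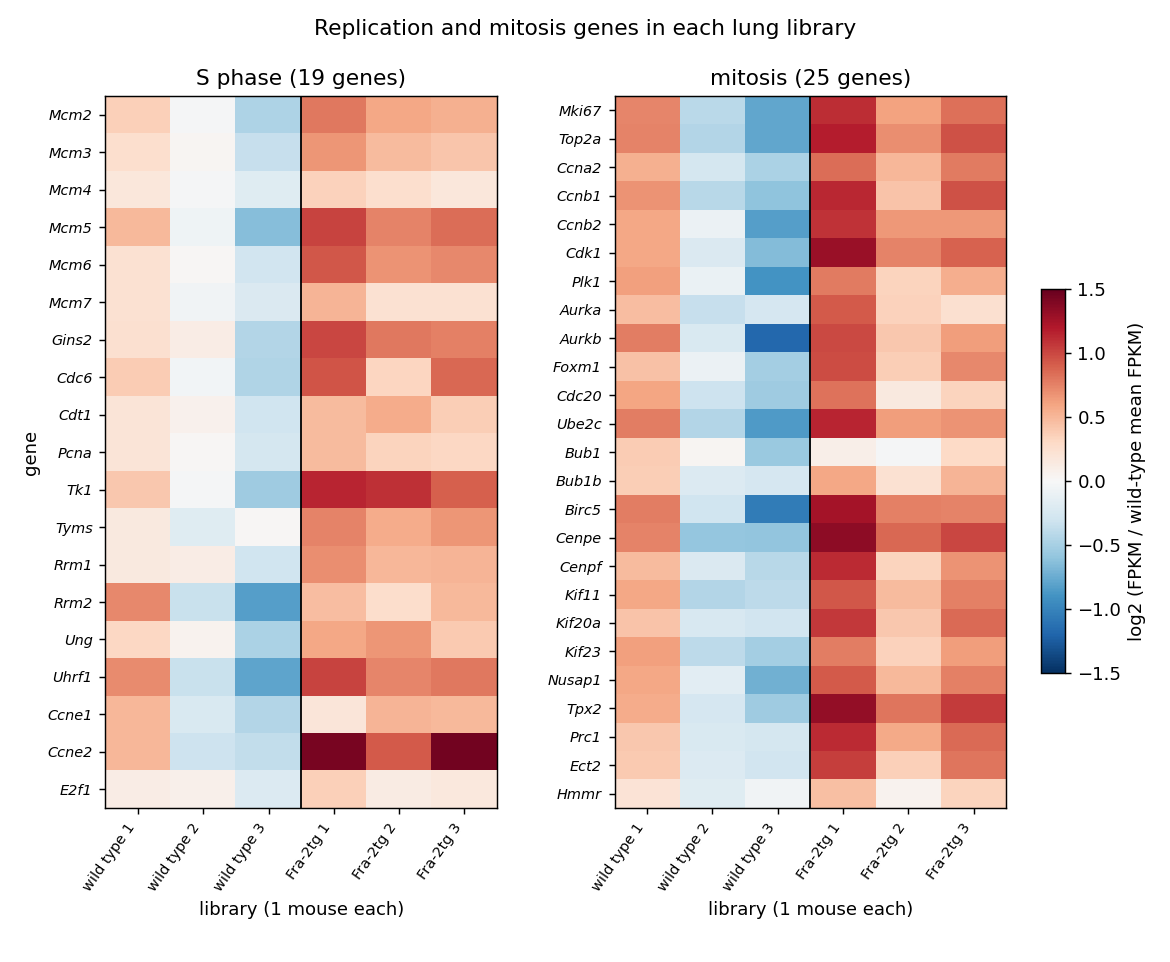
Colour gives log2 of each member's FPKM over its wild-type mean, in 6 libraries (columns, 1 mouse each), for 19 S-phase genes (left) and 25 mitotic genes (right). Fra-2tg columns are red for nearly all members, and wild type replicate 1 is red as well, most of all among mitotic genes. Its median ratio to the wild-type mean was 1.50 for mitotic and 1.19 for S-phase genes.

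Without wild type replicate 1, 37 of 43 members were called higher, 16 of S phase and 21 of mitosis, and 0 lower, against 10.9% higher and 9.65% lower of 14805 genes tested in that fit. The median log2 fold change was then 0.59 for S phase and 0.81 for mitosis. Because this library was the highest of its group for every member, leaving it out raises every fold change by construction, and its choice followed from the data. All 12 members called with the 6 libraries were also called without it. Leaving out any other library lowered the count of members called higher. It was 9 without Fra-2tg replicate 2, against 9.98% of all genes tested in that fit. It was 5 without wild type replicate 2, wild type replicate 3 or Fra-2tg replicate 3, against 11%, 7.33% and 11.4% of all genes. Without Fra-2tg replicate 1 it was 3, against 7.79% of all genes. Mcm6, Tyms and Tk1 were called in all 6 fits that left out 1 library, and Gins2 and Rrm1 in 5. Prc1 and Tpx2 were called in 2 of the 6, and Mcm2, Mcm3, Mcm5, Cdt1 and Cdk1 in 1. The highest limma adjusted p over those fits was 0.0522 for Gins2, 0.0693 for Rrm1 and from 0.0876 to 0.138 for the others that lost their call. The mitotic count fell to 0 without wild type replicate 2 or 3 or without Fra-2tg replicate 1 or 3. With libraries scaled to equal sums, 7 members were called higher, 5 of them of S phase, and the share of all genes called was not counted.

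**Figure D2:**
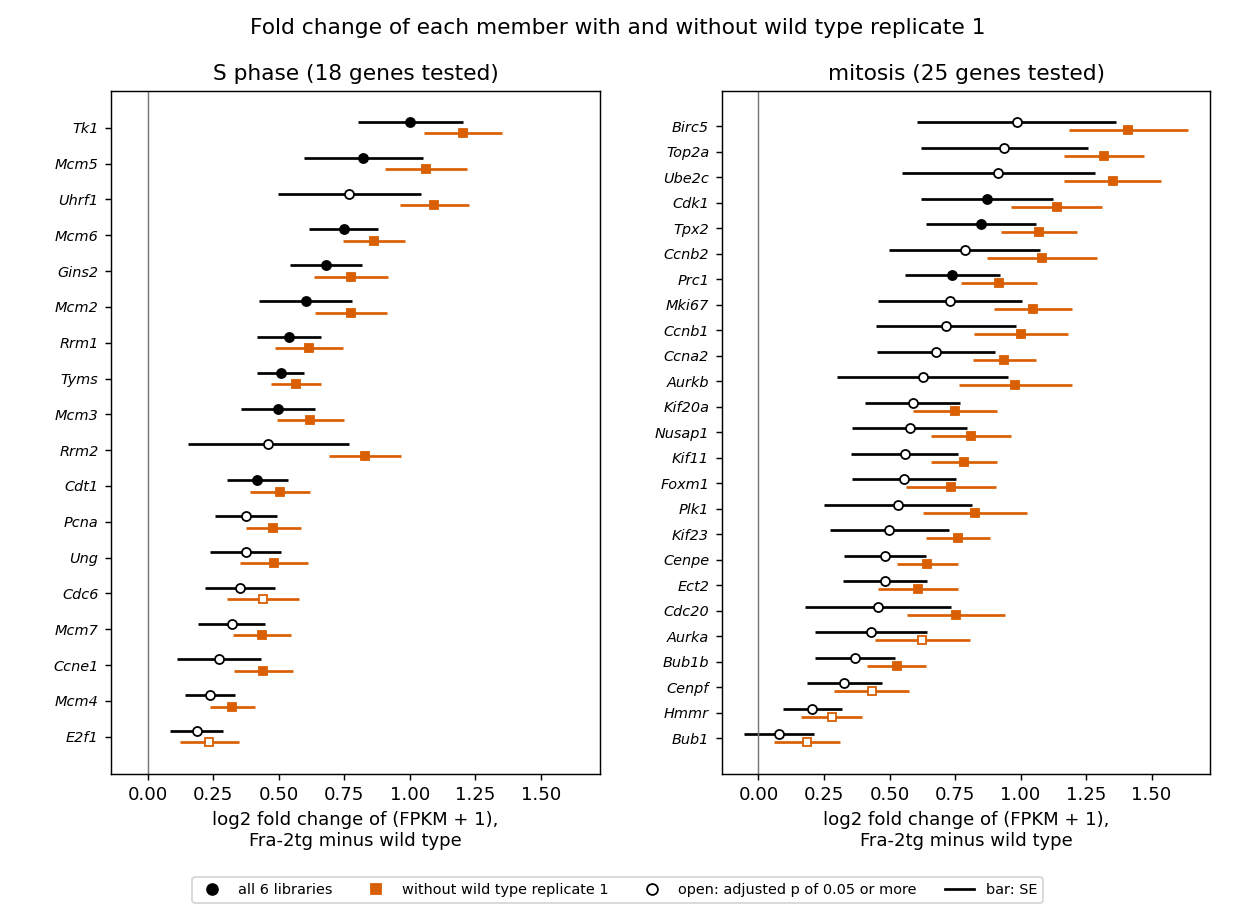
Log2 fold change of FPKM + 1 (x axis, Fra-2tg minus wild type, bar = SE) for each tested member, with 6 libraries (black circles) and without wild type replicate 1 (orange squares); filled symbols passed a limma adjusted p of 0.05. All values lie right of 0, and the filled symbols go from 12 to 37 members when that library is left out.

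Among S-phase genes, those for the replicative helicase and its loading came first, with 6 of 9 called higher. Mcm2 to Mcm7 encode the ring-shaped helicase that unwinds DNA, and their levels summed to 79.3, 65.3 and 53.2 FPKM in wild-type lungs and 107, 91.4 and 91.3 FPKM in Fra-2tg lungs. Mcm6 was at 17.2, 14.8 and 12.0 FPKM in wild-type lungs and 27.9, 23.3 and 24.1 FPKM in Fra-2tg lungs. Each Fra-2tg library exceeded each wild-type library. Its mean went from 14.6 ± 2.60 FPKM (SD, n = 3) to 25.1 ± 2.45 FPKM (SD, n = 3), a ratio of 1.71 and a log2 fold change of 0.75 ± 0.13 (SE; limma adjusted p = 0.00854), the smallest adjusted p of the members.

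Mcm5 was at 8.74, 5.97 and 4.01 FPKM in wild-type lungs and 12.6, 10.4 and 11.1 FPKM in Fra-2tg lungs. It had the largest ratio of the 6 helicase genes, 1.82, with a log2 fold change of 0.82 ± 0.23 (limma adjusted p = 0.0388). Mcm3 was at 13.0, 11.2 and 8.60 FPKM in wild-type lungs and 17.2, 15.2 and 14.5 FPKM in Fra-2tg lungs. Mcm2 was at 9.10, 7.02 and 5.15 FPKM in wild-type lungs and 12.3, 10.6 and 10.3 FPKM in Fra-2tg lungs. Neither gene's groups overlapped, and both were called, with ratios of 1.43 and 1.56 (limma adjusted p = 0.0436 and 0.0467). Mcm7 was at 19.9, 16.4 and 14.5 FPKM in wild-type lungs and 24.2, 19.9 and 19.9 FPKM in Fra-2tg lungs. Mcm4 was at 11.4, 9.97 and 8.91 FPKM in wild-type lungs and 12.8, 12.0 and 11.3 FPKM in Fra-2tg lungs. For these, wild type replicate 1 reached the lowest Fra-2tg library, and ratios of 1.26 and 1.19 did not pass (limma adjusted p = 0.111 and 0.110). Mcm7 shares exon sequence with Cops6 and Ap4m1 on the other strand. The 6 subunits of 1 complex thus had ratios from 1.19 to 1.82.

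Gins2, a subunit of the GINS complex that activates the helicase, was at 3.16, 2.90 and 1.98 FPKM in wild-type lungs and 5.36, 4.64 and 4.52 FPKM in Fra-2tg lungs. The groups did not overlap, and the ratio was 1.81 (log2 fold change 0.68 ± 0.14, limma adjusted p = 0.0141). Cdt1, which loads the helicase on origins, was at 6.45, 5.91 and 4.60 FPKM in wild-type lungs and 7.83, 8.35 and 7.32 FPKM in Fra-2tg lungs. It was called with a smaller ratio of 1.39 (limma adjusted p = 0.0406). Cdc6, its loading partner, was below 1.4 FPKM in every library and was not called, with a ratio of 1.67 (limma adjusted p = 0.0991).

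Of 6 genes that supply nucleotides or act at the fork, 3 were called higher. Tk1, the thymidine salvage kinase, was at 10.8, 8.04 and 5.65 FPKM in wild-type lungs and 18.1, 17.5 and 15.2 FPKM in Fra-2tg lungs. Its lowest Fra-2tg value exceeded its highest wild-type value by more than the whole Fra-2tg range, and it had the largest log2 fold change of the members, 1.00 ± 0.20, and a ratio of 2.07 (limma adjusted p = 0.0131). Part of its exon sequence overlaps Afmid on the other strand. Tyms, which makes thymidylate, was at 2.97, 2.36 and 2.70 FPKM in wild-type lungs and 4.49, 3.92 and 4.23 FPKM in Fra-2tg lungs. Its wild-type libraries lay close together, replicate 3 was not the lowest, and the ratio was 1.58 (log2 fold change 0.51 ± 0.09, limma adjusted p = 0.00867).

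Ribonucleotide reductase, which makes deoxynucleotides, had its subunits on either side of the threshold. Rrm1, the large subunit, was at 11.2, 10.9 and 8.18 FPKM in wild-type lungs and 16.4, 14.3 and 14.4 FPKM in Fra-2tg lungs. It was called, with a ratio of 1.49 and groups that did not overlap (limma adjusted p = 0.0201). Rrm2, the small subunit, which is induced in S phase, was at 9.94, 4.81 and 3.42 FPKM in wild-type lungs and 8.31, 7.29 and 8.46 FPKM in Fra-2tg lungs. Here wild type replicate 1 was the highest of all 6 libraries, and the ratio of 1.32 was not called (limma adjusted p = 0.308). Without that library the ratio of Rrm2 was 1.95 (limma adjusted p = 0.0132).

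Pcna, the sliding clamp, was the most abundant member, at 72.6, 64.3 and 52.9 FPKM in wild-type lungs and 87.6, 79.5 and 78.1 FPKM in Fra-2tg lungs. The groups did not overlap, yet the ratio of 1.29 just missed the threshold (limma adjusted p = 0.0573). Ung, which removes uracil from new DNA, also did not overlap and was not called, with a ratio of 1.46 (limma adjusted p = 0.0866). Uhrf1, which reads hemimethylated DNA behind the fork, was at 5.31, 2.58 and 1.88 FPKM in wild-type lungs and 6.59, 5.39 and 5.62 FPKM in Fra-2tg lungs. Its ratio of 1.80 was among the larger ones, but wild type replicate 1 was nearly level with Fra-2tg replicates 2 and 3, and it was not called (limma adjusted p = 0.0821). Without wild type replicate 1 its log2 fold change went from 0.77 to 1.09 (limma adjusted p = 0.00724).

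Of the G1/S control genes, 0 of 3 tested were called. E2f1, the transcription factor that starts S phase, was at 6.03, 5.92 and 4.85 FPKM in wild-type lungs and 7.16, 6.08 and 6.24 FPKM in Fra-2tg lungs. Its groups stood apart by a narrow margin, and its log2 fold change of 0.19 ± 0.10 was the lowest of the S-phase members (limma adjusted p = 0.211). Ccne1, a cyclin E, was at 2.14, 1.30 and 1.12 FPKM in wild-type lungs and 1.72, 2.17 and 2.12 FPKM in Fra-2tg lungs. The groups overlapped, and it was not called (ratio 1.32, limma adjusted p = 0.250). Ccne2, the other cyclin E, was at 0.387, 0.221 and 0.211 FPKM in wild-type lungs and 0.731, 0.518 and 0.745 FPKM in Fra-2tg lungs. All Fra-2tg libraries were higher and the ratio was 2.44, but its mean stayed under 0.5 FPKM, so it was left out of the main test. With no filter on low values it was called (limma adjusted p = 0.0219), in a setting that called 8 of the 44 members, 6 of S phase and 2 of mitosis. Without wild type replicate 2 or 3 its mean passed the filter, and it was not called (limma adjusted p = 0.0982 and 0.117). Its exons overlap Ints8 on the other strand.

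**Figure D3:**
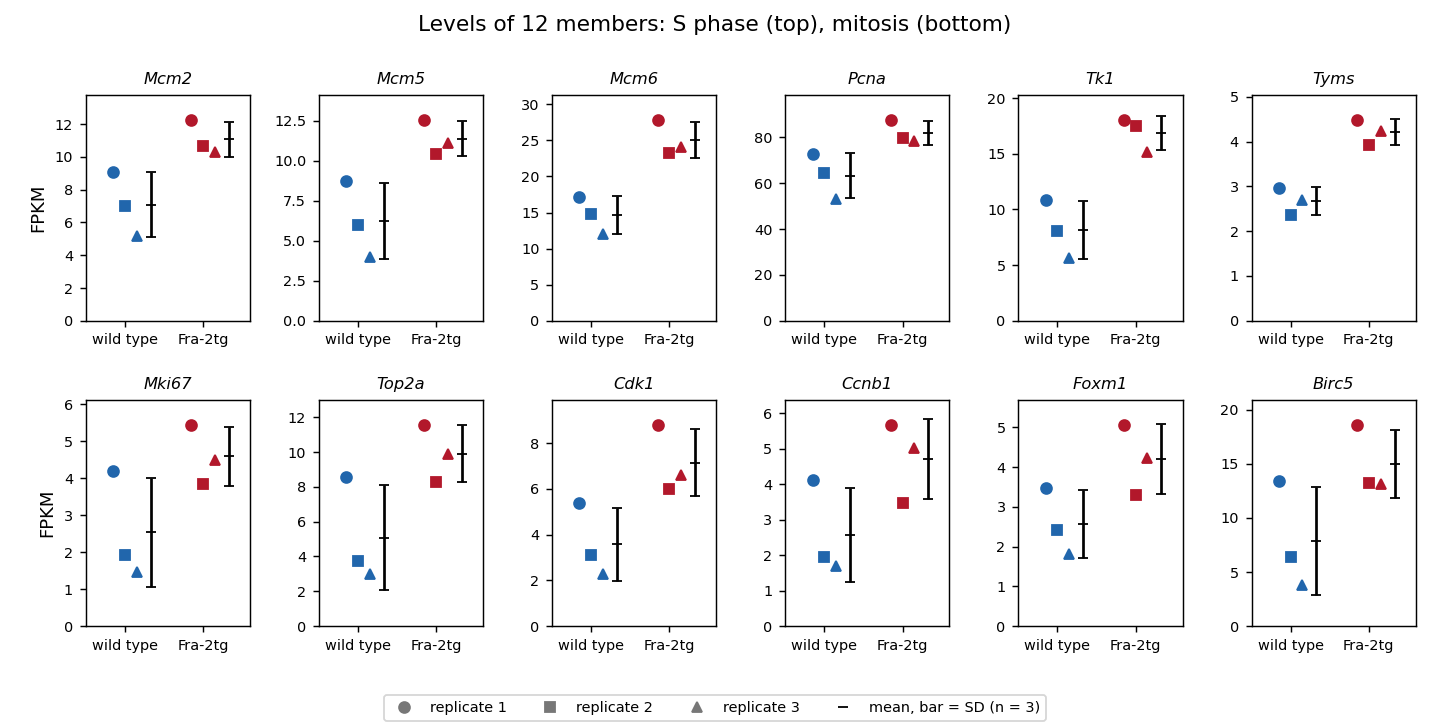
FPKM (y axis, from 0) of 12 members, S phase above and mitosis below, in 3 wild-type (blue) and 3 Fra-2tg (red) libraries, with symbols for replicate numbers and bars for mean ± SD (n = 3). For Mcm6, Tk1 and Tyms the groups are well separated, whereas for Mki67, Top2a and Birc5 wild type replicate 1 (blue circle) lies at or above the lowest Fra-2tg library.

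Among mitotic genes, the kinase Cdk1 and the spindle genes Prc1 and Tpx2 were called. Cdk1, the kinase that drives entry into mitosis, was at 5.37, 3.09 and 2.28 FPKM in wild-type lungs and 8.79, 6.00 and 6.62 FPKM in Fra-2tg lungs. The groups did not overlap, and the mean went from 3.58 ± 1.60 FPKM (SD, n = 3) to 7.14 ± 1.47 FPKM (SD, n = 3), a ratio of 1.99 (log2 fold change 0.87 ± 0.25, limma adjusted p = 0.0450). Ccnb1, its partner cyclin B1, was at 4.10, 1.94 and 1.70 FPKM in wild-type lungs and 5.66, 3.47 and 5.01 FPKM in Fra-2tg lungs. Wild type replicate 1 exceeded Fra-2tg replicate 2, and the ratio of 1.83 was not called (limma adjusted p = 0.0929). Ccnb2 had a ratio of 1.76 with groups that did not overlap, and Ccna2, cyclin A2, 1.64 with groups that did, and neither was called (limma adjusted p = 0.0880 and 0.0672).

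Foxm1, the transcription factor of the G2 and mitosis wave, was at 3.49, 2.41 and 1.81 FPKM in wild-type lungs and 5.06, 3.30 and 4.23 FPKM in Fra-2tg lungs. Its groups overlapped through wild type replicate 1 and Fra-2tg replicate 2, and it was not called (ratio 1.64, limma adjusted p = 0.0821). Plk1, a kinase of centrosomes and kinetochores, was at 6.03, 3.66 and 2.11 FPKM in wild-type lungs and 6.73, 4.95 and 5.72 FPKM in Fra-2tg lungs. Aurkb, the kinase of the chromosomal passenger complex, was at 4.58, 2.29 and 1.19 FPKM in wild-type lungs and 5.34, 3.55 and 4.15 FPKM in Fra-2tg lungs. For both, wild type replicate 1 was above 2 of the 3 Fra-2tg libraries, and they were not called (ratios 1.47 and 1.62, limma adjusted p = 0.204 and 0.198). The related kinase Aurka, which matures spindle poles, had a ratio of 1.45 (limma adjusted p = 0.181).

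Mki67, which coats mitotic chromosomes and is the standard marker of proliferation, was at 4.2, 1.91 and 1.48 FPKM in wild-type lungs and 5.44, 3.85 and 4.48 FPKM in Fra-2tg lungs. Top2a, which untangles sister chromatids, was at 8.55, 3.75 and 2.97 FPKM in wild-type lungs and 11.6, 8.29 and 9.87 FPKM in Fra-2tg lungs. Both markers had ratios near those of the called genes, 1.81 and 1.95, but wild type replicate 1 was more than double its fellow wild-type libraries and above Fra-2tg replicate 2, and neither was called (log2 fold changes 0.73 ± 0.27 and 0.94 ± 0.32, limma adjusted p = 0.0948 and 0.0717). Without that library their ratios were 2.71 and 2.95, and both were called (limma adjusted p = 0.00944 and 0.00669).

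Of 7 genes of the spindle checkpoint, the kinetochore and the anaphase-promoting complex, 0 were called with the 6 libraries and 5 without wild type replicate 1. Birc5, survivin of the chromosomal passenger complex, was at 13.4, 6.36 and 3.79 FPKM in wild-type lungs and 18.6, 13.2 and 13.1 FPKM in Fra-2tg lungs. It had the largest log2 fold change of the mitotic members with a wide error, 0.99 ± 0.38, and wild type replicate 1 was level with Fra-2tg replicates 2 and 3 (limma adjusted p = 0.101). Cenpe, a kinetochore motor, had the largest ratio of the mitotic members, 2.12, at levels from 0.347 to 1.33 FPKM (limma adjusted p = 0.0624). Ube2c, the ubiquitin-conjugating enzyme of the anaphase-promoting complex, was at 20.4, 8.78 and 6.64 FPKM in wild-type lungs and 26.4, 18.5 and 19.1 FPKM in Fra-2tg lungs. It was the most abundant mitotic member and was not called (ratio 1.79, limma adjusted p = 0.113). Cdc20, the activator of the same complex, Cenpf of the outer kinetochore and the checkpoint kinase Bub1b had ratios of 1.38, 1.67 and 1.36 (limma adjusted p = 0.264, 0.137 and 0.120).

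Bub1, the other checkpoint kinase, was the member that moved least. It was at 1.34, 1.06 and 0.707 FPKM in wild-type lungs and 1.10, 1.02 and 1.27 FPKM in Fra-2tg lungs. Wild type replicate 1 was the highest of all 6 libraries, and the log2 fold change of 0.08 ± 0.13 was not called (limma adjusted p = 0.698). Hmmr, a spindle protein that also binds hyaluronan, had the next lowest fold change of the mitotic members, at 2.65, 2.03 and 2.23 FPKM in wild-type lungs and 3.15, 2.38 and 2.90 FPKM in Fra-2tg lungs. Its groups overlapped, and the ratio was 1.22 (limma adjusted p = 0.218).

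Of 8 spindle and cytokinesis genes, 2 were called higher. Prc1, which bundles the microtubules of the central spindle, was at 5.50, 3.55 and 3.46 FPKM in wild-type lungs and 9.02, 6.20 and 7.51 FPKM in Fra-2tg lungs. Tpx2, which activates Aurora A on spindle microtubules, was at 3.35, 1.92 and 1.58 FPKM in wild-type lungs and 5.70, 3.99 and 4.73 FPKM in Fra-2tg lungs. The groups did not overlap for either, and the ratios were 1.82 and 2.10 (log2 fold changes 0.74 ± 0.18 and 0.85 ± 0.21, limma adjusted p = 0.0267 and 0.0271). The motors Kif11, Kif20a and Kif23, the microtubule-binding Nusap1 and the cytokinesis factor Ect2 had ratios from 1.51 to 1.74 and were not called (limma adjusted p from 0.0545 to 0.147). Prc1 shares exon sequence with Rccd1 on the other strand, and 12 of the 44 members overlap an exon of another gene, 11 on the other strand alone. These 12 are Ccna2, Ccne2, Cdc20, Foxm1, Gins2, Kif20a, Mcm7, Nusap1, Plk1, Prc1, Tk1 and Ube2c. The library kit kept the strand, but the sources used here do not say whether counting used it, so these values are uncertain.

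The summed mitotic level over the summed S-phase level was 0.645, 0.420 and 0.413 in wild-type lungs and 0.665, 0.526 and 0.604 in Fra-2tg. Wild type replicate 1 was thus within the Fra-2tg range on this measure, and the groups overlapped. The summed S-phase level did not overlap, at 213, 177 and 142 FPKM in wild-type lungs and 275, 244 and 242 FPKM in Fra-2tg lungs. The summed mitotic level did, at 138, 74.2 and 58.8 FPKM in wild-type lungs and 183, 129 and 146 FPKM in Fra-2tg lungs.

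Other genes of both processes were also called higher, and 0 lower. Of 49 tested genes of another replication list, 16 were called higher, which is 32.7% against 13.6% of all genes tested, with a median log2 fold change of 0.28. That count was 22 without wild type replicate 1, 9 without wild type replicate 2, 7 without wild type replicate 3, 8 without Fra-2tg replicate 1 and 7 with equal library sums. They included Orc6 of the origin recognition complex (ratio 1.45), the histone chaperone Chaf1b (1.80), the clamp loader Rfc5 (1.53), DNA ligase Lig1 (1.80), the GINS gene Gins1 (2.01) and Rnaseh2b (1.53), with limma adjusted p from 0.00397 to 0.00794. Of 62 tested genes of another mitosis list, 15 were called higher (24.2%), with a median of 0.47, and 39 were called without wild type replicate 1. That count was 2 to 3 without wild type replicate 2 or 3 or without Fra-2tg replicate 1 or 3, and 6 with equal library sums. Ckap2, which stabilises spindle microtubules, was at 1.83, 1.45 and 1.15 FPKM in wild-type lungs and 4.45, 2.95 and 3.65 FPKM in Fra-2tg lungs. Anln, the anillin of the cleavage furrow, was at 2.12, 1.95 and 1.64 FPKM in wild-type lungs and 4.31, 3.08 and 3.70 FPKM in Fra-2tg lungs. Neither overlapped, with ratios of 2.49 and 1.94 (limma adjusted p = 0.00691 and 0.00816). The kinases Melk and Pbk, the kinetochore gene Spc25 and Cks1b, a binding partner of cyclin-dependent kinases, had ratios of 2.15, 2.50, 1.59 and 1.70 (limma adjusted p from 0.0200 to 0.0248).

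Of 38 tested upstream regulators of the cycle, 7 were called higher, which is 18.4% against 13.6% of all genes tested, and 1 lower, with a median log2 fold change of 0.08. Cks1b is among the 7 and is also counted in the mitosis list. The count called higher was 9 without wild type replicate 1, 3 without wild type replicate 3, and 4 without Fra-2tg replicate 1 or with equal library sums. The median turned to -0.0541 with equal library sums computed without Sftpc and Scgb1a1. Myc, a transcription factor that drives growth and cell cycle entry, was at 5.57, 4.29 and 3.26 FPKM in wild-type lungs and 10.04, 12.3 and 9.38 FPKM in Fra-2tg lungs. The Fra-2tg libraries were all higher by a wide margin, with a ratio of 2.42 (log2 fold change 1.12 ± 0.17, limma adjusted p = 0.00523). E2f7, a repressive E2F, and Chek1, the replication checkpoint kinase, were low but had ratios of 2.61 and 2.41 (limma adjusted p = 0.00871 and 0.0125). Cyclin D1, Ccnd1, had a ratio of 1.25, and Lin52, a subunit of the DREAM complex, was the gene that fell, with a ratio of 0.745 (limma adjusted p = 0.0154 and 0.00594).

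Of 18 inhibitors of the cell cycle, 3 were called higher, which is 16.7% against 13.6% of all genes tested, and 5 lower, where 13% of all genes were lower. Without wild type replicate 1, 3 were called higher and 4 lower. The count called higher was 1 without wild type replicate 3 or Fra-2tg replicate 3, or with equal library sums. The median log2 fold change was -0.06 and turned to 0.0474 without Fra-2tg replicate 3 and to 0.0220 without wild type replicate 2. Cdkn1c, the inhibitor p57, was at 25.8, 22.4 and 25.7 FPKM in wild-type lungs and 10.4, 11.6 and 10.6 FPKM in Fra-2tg lungs. Every Fra-2tg library was below every wild-type library, and the ratio was 0.443 (limma adjusted p = 0.000770). Cdkn1b, the inhibitor p27, Cdkn2c, an inhibitor of Cdk4 and Cdk6, and the stress gene Gadd45b fell as well, with ratios of 0.660, 0.639 and 0.553 (limma adjusted p from 0.00260 to 0.00518). Cdkn2a, whose locus encodes the inhibitors Ink4a and Arf, was at 1.54, 3.10 and 1.25 FPKM in wild-type lungs and 11.8, 10.9 and 10.8 FPKM in Fra-2tg lungs. It rose most in this list, with a ratio of 5.68 (log2 fold change 2.09 ± 0.21, limma adjusted p = 0.00186). Cdkn1a, the p53 target p21, also rose, with a ratio of 1.43 (limma adjusted p = 0.0170). Thus Cdkn2a and Cdkn1a were higher, and Cdkn1c, Cdkn1b and Cdkn2c lower, in the same libraries in which the S-phase members were higher.

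**Figure D4:**
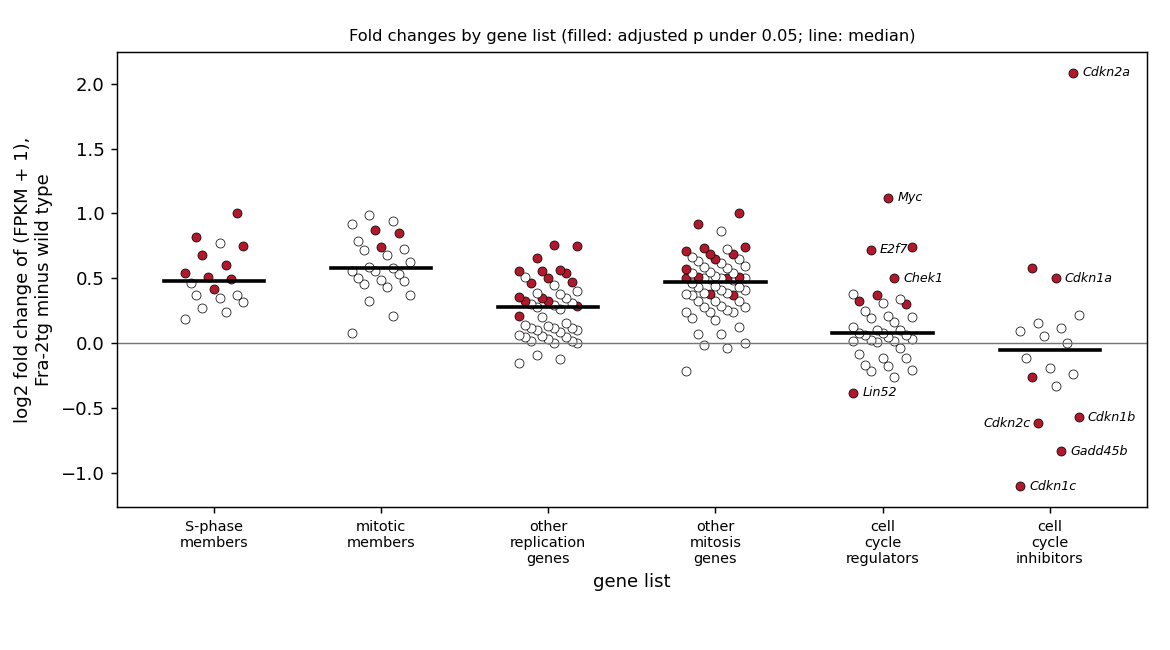
Log2 fold change of FPKM + 1 (y axis, Fra-2tg minus wild type) of each tested gene in the S-phase and mitotic members and 4 other cell cycle lists; filled points passed a limma adjusted p of 0.05 and lines are medians. Medians go from 0.58 in mitotic members to -0.06 in inhibitors, where Cdkn2a lies highest and Cdkn1c lowest.

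Markers of several cell types also differed, between the genotypes and among the wild-type libraries. Their counts with the 6 libraries stand beside 13.6% called higher and 13% lower of all genes tested. The share called higher was near this for T cell markers (11.1%) and alveolar type 1 markers (12.5%). The summed level of 12 interstitial macrophage and monocyte markers was 317, 306 and 213 FPKM in wild-type lungs and 640.5, 655 and 595 FPKM in Fra-2tg lungs, with 10 of 12 called higher (C1qb ratio 2.98, C1qa 2.67). Ly6c2 and Cx3cr1 of this list did not rise, with ratios of 0.636 and 0.966, and were not called (limma adjusted p = 0.116 and 0.770). Alveolar macrophage markers summed to 653 to 1150.0 FPKM in wild type and 2178 to 4551 FPKM in Fra-2tg, with 8 of 12 called higher (Chi3l3 ratio 7.67, Car4 1.23). Chi3l3 alone was at 193, 619.6 and 189.9 FPKM in wild-type lungs and 1470.4, 3678 and 2536 FPKM in Fra-2tg lungs. The other 11 markers summed to 465, 530.3 and 463 FPKM in wild-type lungs and to 708, 873 and 720.2 FPKM in Fra-2tg lungs. In wild type, Car4, also in the capillary list, and Krt19 were the largest of these, at 172 to 186 and 120 to 139 FPKM. Krt19, Marco, Fabp4 and Krt79 were not called, with ratios from 1.16 to 1.36 (limma adjusted p from 0.109 to 0.520). Fibroblast markers were split, with 5 of 12 called higher and 5 lower and a median log2 fold change of -0.27. The collagens Col3a1 and Col1a2 were higher (ratios 2.59 and 2.03), as were Col1a1, Col14a1 and the fibronectin gene Fn1, while Pdgfra, Tcf21, Dcn, Col13a1 and Postn were lower, with ratios from 0.557 to 0.717. Of the lymphocyte lists, B cell markers summed to 342, 158 and 203 FPKM in wild-type lungs and 60.0, 56.8 and 41.8 FPKM in Fra-2tg lungs, with 9 of 10 called lower (Cd79a ratio 0.196, Cd79b 0.282). Within wild type, replicate 1 was the highest library for 10 of 10 B cell, 9 of 9 T cell and 8 of 8 natural killer cell markers, as it was for all 44 members. Of the other immune lists, it was highest for 5 of 7 germinal centre and plasma cell and 5 of 7 thymocyte markers. It was so for 5 of 12 interstitial macrophage and monocyte and 2 of 8 dendritic cell markers. For alveolar macrophage and neutrophil markers the counts were 1 of 12 and 1 of 10. T cell markers summed to 67.5 to 95.7 FPKM in wild type and 81.4 to 96.6 FPKM in Fra-2tg. Of 9, 1 was called higher (Cd3g, ratio 1.64) and 1 lower (Cd8a, ratio 0.646). Cd2, with a ratio of 0.914, was not called (limma adjusted p = 0.470). Natural killer cell markers summed to 45.9 to 68.1 FPKM in wild type and 13.0 to 35.1 FPKM in Fra-2tg. Of 8, 5 were called lower, Gzma among them (ratio 0.258). Klrd1 (ratio 0.697) and Gzmb, which went the other way (ratio 2.07), were not called (limma adjusted p = 0.0874 and 0.0999). Of 7 thymocyte markers, Rag1, Rag2, Dntt, Ptcra and Arpp21 stayed below 0.5 FPKM in every library. Of 9 erythroid markers, 0 of the 4 tested were called, and the defining genes Klf1 and Slc4a1 stayed below 0.5 FPKM in every library. In the remaining marker lists, those called higher and lower were 5 and 2 of 8 for dendritic cells, 0 and 5 of 9 tested for neutrophils, and 1 and 6 of 12 for capillary endothelium, where the gene called higher was Car4, also an alveolar macrophage marker here. They were 0 and 4 of 7 for smooth muscle, 7 and 1 of 10 for alveolar type 2 cells, 1 and 4 of 8 for alveolar type 1 cells, and 2 and 3 of 9 for airway cells. The alveolar type 2 gene called lower was Sftpc, which is listed at 0 in the Fra-2tg libraries and is not read as a fall. Without wild type replicate 1, 4 T cell markers were called higher and 0 lower. The number called higher was then 5 for alveolar type 2 cells and 0 for capillary endothelium and alveolar type 1 cells. Of all genes tested in that fit, 10.9% were called higher and 9.65% lower. The part of these cell types in the difference of the replication and mitosis genes was not tested.

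**Figure D5:**
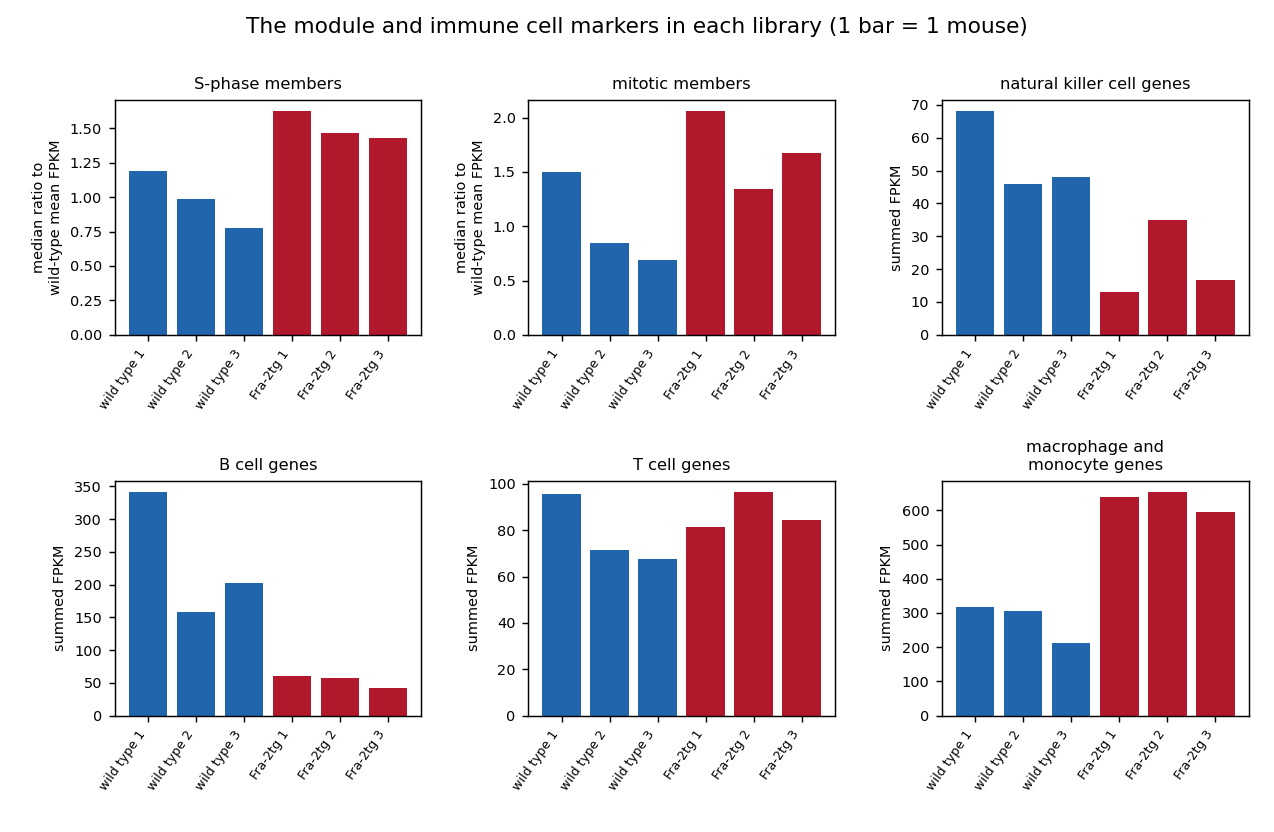
Bars give, for each library (1 mouse), the median ratio of S-phase and of mitotic members to the wild-type mean, and the summed FPKM of 8 natural killer cell, 10 B cell, 9 T cell and 12 macrophage and monocyte markers; all axes start at 0. Wild type replicate 1 is the highest wild-type library in each panel, at 342 FPKM for B cell markers. Of the lists not shown, neutrophil markers were lowest in it, at 266 FPKM, against 501 and 640 FPKM in wild type replicates 2 and 3.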

How the data were processed

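Stranded poly(A) libraries of 6 lungs were compared, 3 per genotype, as the labels group them. The submitters' processing notes name Cufflinks 2.2.1, TopHat2 2.0.10, SAMtools 0.1.19, Bowtie 1.0.0 and FastQC with GRCm38 (mm10) and give no roles or settings. The authors deposited FPKM values per gene and library. These are not counts, so no count model was applied. Depth is unknown, and the precision is that of 3 mice per group. P-values test the difference between the genotypes against the spread between these mice, moderated over all genes.

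The whole table was fitted with limma 3.58.1 in R 4.3.3 (two-sided, trend) on log2(FPKM + 1), which understates changes of low genes, for genes whose mean reached 0.5 FPKM. Benjamini-Hochberg adjustment ran over all 14855 tested genes, with calls under 0.05. Ratios are of group mean FPKM. The procedure was run on simulated data with independent noise for each gene. Those data held no shift shared by many genes of 1 library, so they do not check calls under such a shift. The labels do not say that replicate numbers pair the mice, and no pairing was used in the main fit. Exon overlaps come from the GENCODE M21 annotation of GRCm38, and promoters from RefSeq.

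Members and lists were chosen with earlier results of these data known. Genes named are standard markers, called members, the highest and lowest of each phase, up to 6 called genes of each other list, and the 2 most abundant genes of the marker lists described. Exceptions chosen after their values were seen are Glycam1 and members outside this rule, which are given by ratio so that all 44 are accounted for. Alternatives were 2 other pseudocounts, 2 other filters, 3 scalings, a replicate block, no trend, robust moderation, an adjusted p of 0.1 and each library left out. A fit without both libraries numbered 1 was added after seeing the data.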

Additional observations from a re-analysis of the deposited data

How the results depend on the processing

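No alternative called a member lower. The share of all genes called was counted for the main fit and the fits that left out 1 library. For the other settings it was not counted, so their counts have no background beside them. Leaving out 1 library at a time gave 3 to 37 members called higher, 3 to 16 of S phase and 0 to 21 of mitosis. In the other lists, in the order replication, mitosis, regulators and inhibitors, the ranges were 7 to 22, 2 to 39, 3 to 9 and 1 to 3 called higher. Regulators called lower ranged from 1 to 2, and the median log2 fold change of inhibitors from -0.12 to 0.0474. The log2 fold change of Bub1 was 0.19 without wild type replicate 1 and -0.0433 without wild type replicate 3. Without both libraries numbered 1, a fit chosen after seeing the data, 19 members (13 mitotic), 5 replication genes, 23 mitosis genes and 3 regulators were called higher, and 0 regulators and 3 inhibitors lower.

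With libraries scaled to equal sums, 7 members were called, 5 of S phase, with 7 replication genes, 6 mitosis genes, 4 regulators and 1 inhibitor higher. Equal sums without Sftpc and Scgb1a1 moved the median of all genes by -0.132. They gave 7 members (5 of S phase), 8 replication genes, 6 mitosis genes and 4 regulators higher, and 1 replication gene, 1 mitosis gene and 4 regulators lower. Medians were then 0.14 for replication genes, -0.0541 for regulators and -0.20 for inhibitors. An adjusted p of 0.1 gave 27 members (14 mitotic), 25 replication genes and 30 mitosis genes higher and 2 regulators lower. A filter at 2 FPKM left 8 mitosis genes called of 31 tested. Pseudocounts of 0.1 and 0.01 FPKM gave mitosis gene medians of 0.76 and 0.79.

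Same-numbered mice did not all deviate together (correlations across 14855 genes of -0.0539, 0.0139 and 0.163), and the main fit used no pairing. Among the 44 members, replicate 1 was the highest wild-type library for 44 and the highest Fra-2tg library for 38. Whether the numbers carry a shared handling is not given in the labels and was not tested. Wild type replicate 3 matched its own number best (0.163), and wild type replicate 1 matched Fra-2tg replicate 2 best (0.186). Wild type replicate 2 was near 0 with each Fra-2tg library (-0.0252 to 0.0139). From the other side, Fra-2tg replicate 1 matched wild type replicate 3 best (0.0857). With the number as a replicate block, 25 members (14 mitotic) and 24 mitosis genes were called higher, and 2 regulators lower. The share of all genes called with the block was not counted, so the rise is not read as particular to the members. The cause of these movements was not tested. Levels under 1 FPKM, such as those of Ccne2, Cenpe and Cdc6, are the least certain, since their read numbers are unknown.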
